A study of Mus musculus with 36 samples.

Results

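The genes followed here make and regulate the enzymes that break down the triglyceride stored inside liver cells: Pnpla3 and its neighbour Pnpla5, the lipases Pnpla2, Lipe, Mgll and Lipa, and the lipase regulators Abhd5 and G0s2. They were taken by symbol from the 49315 genes of the deposited table, and each of the 8 symbols matched 1 gene. Liver polyA RNA was sequenced from 36 males, 11 to 12 weeks old, 4 mice in each of 9 groups. CRISPR had been used to put phenylalanine at residue 441 of LXRalpha, the oxysterol-activated liver X receptor, where the normal protein has tryptophan. W/W denotes mice with 2 normal alleles, W/F those with 1 mutant allele, and F/F those with both alleles mutant. There were 3 settings per genotype. Chow mice belonged to a separate cohort, so that diet and cohort cannot be told apart in any diet comparison. For 4 weeks the other mice ate the MASH diet, rich in fat and in cholesterol and named for metabolic dysfunction-associated steatohepatitis, an inflamed fatty liver. Over the last 2 weeks they were gavaged every day with vehicle or with T0901317, a synthetic LXR agonist, at 10 mg/kg. No source states that the 4 mice of a group came from different litters, and no cell-specific driver is named for the mutation.

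Triglyceride in a lipid droplet is cut in steps. Adipose triglyceride lipase, encoded by Pnpla2, takes off the first fatty acid, with Abhd5 (CGI-58) as its co-activator and G0s2 as its inhibitor. Hormone-sensitive lipase, from Lipe, then cuts diglyceride, and monoglyceride lipase, from Mgll, frees the last fatty acid. Lysosomal acid lipase, from Lipa, does the same work on triglyceride and cholesteryl ester delivered to lysosomes. Pnpla3 encodes a lipid droplet protein of the same patatin-like family as Pnpla2. It is known to bind Abhd5 and to be induced by feeding and lipogenic transcription factors. In people the gene is linked to fatty liver disease. Pnpla5 is a close relative of Pnpla3.

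The size of the rise with T0901317 in W/W separated Pnpla3 and Pnpla5 from the other 6 genes. In W/W livers on the MASH diet the agonist took Pnpla3 from 2.63 to 75.8 TPM and Pnpla5 from 0.552 to 14.5 TPM (a transcript's share of its library, a level corrected for gene length and library total). In W/F and F/F livers given the same agonist, Pnpla3 stayed between 0.536 and 2.79 TPM and Pnpla5 at or under 0.337 TPM. Pnpla5 reached 1 TPM in W/W livers only, so its values are a description only. As deposited, Abhd5, Lipa and Pnpla2 also rose with the agonist in W/W and not in the mutants, by less (log2 differences of 1.02, 0.75 and 0.64). The MASH diet with vehicle gave another contrast: G0s2 and Mgll were higher than on chow in W/W, and Mgll was lower than on chow in W/F and F/F.

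Pnpla3 and Pnpla5 are neighbours on mouse chromosome 15. On GRCm38, Pnpla3 (ENSMUSG00000041653) spans chr15:84167837-84187236 on the plus strand and Pnpla5 (ENSMUSG00000018868) spans chr15:84112356-84123175 on the minus strand. Their starts lie 44.7 kb apart and point away from each other, and the annotation has 0 protein-coding genes between them. The 250 bases before each RefSeq start (GRCm38.p6) are shown, because these are the genes whose levels moved together. They come from chr15:84167566-84167815 for Pnpla3 and chr15:84123176-84123425 for Pnpla5, and are written 5′ to 3′ on the gene's own strand. Capitals mark the GC box (GGGCGG), the CCAAT box (seen as ATTGG on the strand shown), an E-box (CACGTG) and a cyclic AMP response element (TGACGTCA), each searched on both strands.
Pnpla3: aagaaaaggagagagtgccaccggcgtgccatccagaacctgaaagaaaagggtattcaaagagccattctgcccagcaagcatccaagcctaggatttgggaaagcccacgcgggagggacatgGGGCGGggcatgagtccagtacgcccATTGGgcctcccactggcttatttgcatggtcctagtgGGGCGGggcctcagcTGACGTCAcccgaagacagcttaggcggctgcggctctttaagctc
Pnpla5: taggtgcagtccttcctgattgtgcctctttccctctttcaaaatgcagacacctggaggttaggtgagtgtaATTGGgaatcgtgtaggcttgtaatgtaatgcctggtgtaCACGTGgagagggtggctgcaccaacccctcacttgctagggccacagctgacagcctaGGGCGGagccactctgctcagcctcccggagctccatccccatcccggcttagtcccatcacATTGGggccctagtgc

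In this window Pnpla3 has a GC box 125 and another 61 bases before the start, a CCAAT box at 99 and the cyclic AMP response element at 46 bases. A further GC box lies 38 bases after the start. Pnpla5 has CCAAT boxes 177 and 16 bases before its start, an E-box at 137 and a GC box at 78 bases. Among all 32851 RefSeq promoters of 300 bases (250 before and 50 after the start), 35.7% hold a GC box, 37.4% a CCAAT box, 7.15% this E-box and 1.79% this cyclic AMP response element. No match to a sterol response element (TCACNCCAC, in 1.24% of promoters) or to an LXR-type direct repeat of AGGTCA with a spacer of 4 bases (in 0.0152%) lies in the 10 listed promoters of the 8 genes. Such a match, or its lack, describes only the letters of this window.

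The other genes lie on other chromosomes. Pnpla2 (ENSMUSG00000025509) is at chr7:141455198-141460743, Lipe (ENSMUSG00000003123) at chr7:25379527-25398710 and G0s2 (ENSMUSG00000009633) at chr1:193272161-193273217. Abhd5 (ENSMUSG00000032540) is at chr9:122351608-122381524, Mgll (ENSMUSG00000033174) at chr6:88724412-88828360 and Lipa (ENSMUSG00000024781) at chr19:34492318-34527474. All are protein-coding. An antisense gene overlaps the exons of Abhd5, Lipe and Mgll, and whether strand was used in counting is not given in the sources used here. Those antisense genes reached at most 0.395, 1.04 and 5.60 TPM, so reads of the pairs cannot be told apart at that level. Of the 50-base words of Pnpla3, 5.14% also occur in another annotated gene.

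Some facts of the whole series touch every value. Library depth, read from the step size of small TPM values, was 18.0 to 35.7 M reads. The substitution leaves an RNA of the same length, so the level of the receptor gene does not check the genotype: Nr1h3, the usual symbol of LXRalpha, had group means of 86.8 to 108 TPM. Hepatocyte markers were abundant in every group (summed over 8 genes, at least 37094 TPM in each library), as the label liver asks. Macrophage markers moved with the groups. Their sum over 9 genes was 183 to 232 TPM in W/W on vehicle, 1179 to 1801 in W/F and 1355 to 1715 in F/F, and the hepatocyte sum was 79892 to 101634 in W/W against 37094 to 41240 in F/F. In bulk tissue, fewer cells of a type and less RNA per cell cannot be told apart. One W/F liver on T0901317, replicate 2, stood apart from its group: its macrophage sum was 767 TPM against 122 to 221 in the other 3, and its score on the first principal component was 1.00 against 44.9 to 54.4. Results that rest on that group are given with and without it where a call changes.

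Differences were fitted with limma on log2(TPM + 1) over the 16638 genes that reached 1 TPM in 4 samples or more, and adjusted p-values are Benjamini-Hochberg values over all of them. The 8 genes all passed that filter, but every library in which Pnpla5 reached 1 TPM was W/W, so it passed only through the group where it is high. The median of all genes moved with genotype, for instance by 0.70 (log2) in F/F against W/W on vehicle. Each comparison was therefore also made after rescaling each library (median-of-ratios factors), which brought that median to 0.15. On vehicle, 90.0% of the called genes were higher in W/F than in W/W and 90.7% in F/F, and after rescaling 61.7% and 62.5%.

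**Figure D1:**
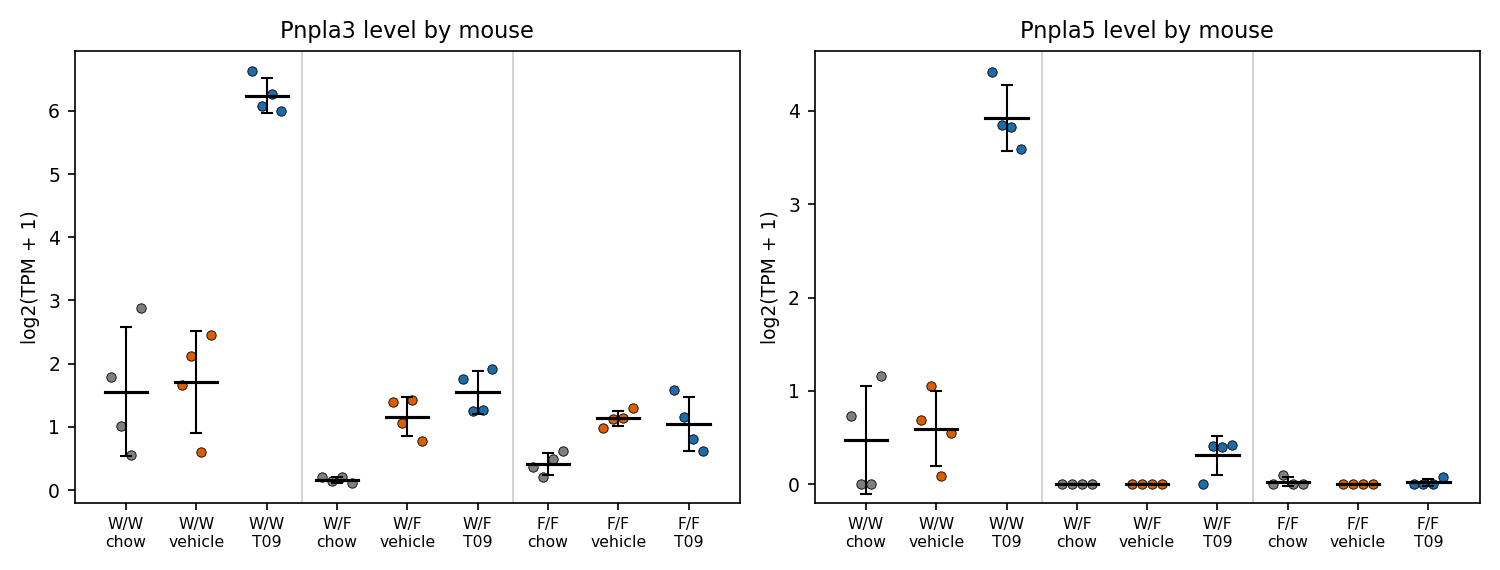
Pnpla3 (left) and Pnpla5 (right) in each of the 36 livers, as log2(TPM + 1), by genotype and treatment (T09, T0901317; vehicle and T09 groups on the MASH diet). Points are mice, the thick line is the group mean and the bar is 1 SD (n = 4). The 4 W/W livers on T0901317 stand above all others in both panels.

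Pnpla3 was low in all groups but one. In W/W livers it stood at 2.45, 1.02, 0.472 and 6.35 TPM on chow, at 2.16, 3.34, 0.521 and 4.49 TPM on vehicle, and at 97.7, 66.6, 76.2 and 62.8 TPM on T0901317. The agonist group did not overlap the others, while chow and vehicle overlapped each other. T0901317 raised Pnpla3 28.9-fold in the means, from 2.63 ± 1.70 to 75.8 ± 15.6 TPM (SD, n = 4), a fitted log2 difference of 4.53 ± 0.33 (SE, limma adjusted p = 3.53e-11).

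In W/F livers Pnpla3 read 0.155, 0.102, 0.150 and 0.0754 TPM on chow, 1.63, 1.09, 1.68 and 0.708 TPM on vehicle, and 2.38, 1.38, 1.42 and 2.79 TPM on T0901317. Chow lay below the other settings in every W/F liver, and vehicle and T0901317 overlapped. F/F livers read 0.283, 0.158, 0.401 and 0.538 TPM on chow, 0.980, 1.17, 1.20 and 1.45 TPM on vehicle, and 2.01, 1.24, 0.757 and 0.536 TPM on T0901317. The T0901317 values of F/F spread across those of F/F vehicle. The agonist difference was 0.39 ± 0.33 in W/F (limma adjusted p = 0.312) and -0.09 ± 0.33 in F/F (limma adjusted p = 0.860). Each response was smaller than that of W/W, by -4.14 ± 0.47 in W/F and -4.62 ± 0.47 in F/F (limma adjusted p = 3.15e-08 and 4.10e-08 for the difference of responses). On T0901317, W/W livers held 38.0 times the Pnpla3 of W/F livers and 66.7 times that of F/F livers.

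On chow the mutants were near the floor for this gene, and so was W/W replicate 3 (0.472 TPM). The F/F and W/W values overlapped. The values ran from 0.472 to 6.35 TPM in W/W, 0.0754 to 0.155 TPM in W/F and 0.158 to 0.538 TPM in F/F. Recovered reads of Pnpla3 did not come out whole (for instance 1.33 in W/F replicate 2). The exon length used may thus not match that of the deposited table, and no read counts are given for this gene. Pnpla3 was lower in W/F by a fitted -1.40 (limma adjusted p = 0.0484) and in F/F by -1.14 (limma adjusted p = 0.00637). The added 1 TPM shrinks such differences, and with a pseudocount of 0.1 they were -3.05 and -2.10. The W/F call did not last when W/W replicate 1 or 4 or any of the 4 W/F livers was left out (-1.41 to -0.96, limma adjusted p up to 0.338). The F/F call was lost without W/W replicate 4, the liver at 6.35 TPM (-0.70, limma adjusted p = 0.0576). Fitted on the compared groups alone, neither passed (limma adjusted p = 0.622 and 0.0763).

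In the means, both mutants held more Pnpla3 on the MASH diet with vehicle than on chow, where every W/F liver was at or under 0.155 TPM. Between chow and MASH diet with vehicle Pnpla3 rose in W/F by 1.00 ± 0.33 (limma adjusted p = 0.0107), from 0.120 ± 0.0385 to 1.28 ± 0.463 TPM, and stood at 0.345 ± 0.162 and 1.20 ± 0.193 TPM in F/F without overlap (0.71 ± 0.33, limma adjusted p = 0.0698). With a pseudocount of 0.1 these differences were 2.59 and 1.61, and the F/F one was then called (limma adjusted p = 0.0116). Rescaled, they were 0.84 and 0.53, and only the W/F one was called (limma adjusted p = 0.0390 and 0.211). In W/W the means were 2.57 and 2.63 TPM. On vehicle the lower values of the mutants were not called (-0.55 in W/F, limma adjusted p = 0.148; -0.58 in F/F, limma adjusted p = 0.118). That result rested on W/W replicate 3, at 0.521 TPM: without it both differences passed (-0.91 and -0.94, limma adjusted p = 0.0132 and 0.00921), as they did after rescaling (-0.88 and -0.99, limma adjusted p = 0.0320 and 0.0144). The same liver also had the lowest Pnpla5 (0.0595 TPM), G0s2 (278 TPM), Srebf1 (186 TPM) and Fasn (31.2 TPM) of the W/W vehicle group.

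Pnpla5, the neighbour gene, was also highest in W/W on T0901317, at a lower level. In the mutants it was at or near 0 TPM on chow and vehicle, where Pnpla3 differed between these settings. It stood at 0.657, 0, 0 and 1.24 TPM in W/W on chow, at 0.609, 1.08, 0.0595 and 0.464 TPM on vehicle, and at 20.4, 13.4, 13.2 and 11.1 TPM on T0901317. The T0901317 group lay above all other W/W livers. Pnpla5 rose 26.3-fold in the means, by 3.33 ± 0.19 (limma adjusted p = 2.54e-13). It passed the filter only through W/W livers, so its values for W/W are a description only. In W/F all 8 livers on chow and vehicle were at 0, and those on T0901317 read 0, 0.330, 0.320 and 0.337 TPM. Of the F/F livers only 1 on chow (0.0722 TPM) and 1 on T0901317 (0.0544 TPM) had any read. Each was recovered as 1.28 reads, the smallest nonzero value of this gene. As that is not whole, the exon length used may not match that of the deposited table, and no floor in TPM is set. The W/W mean on T0901317 was 14.5 ± 4.05 TPM, and no fold is given against the groups at 0.

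On vehicle Pnpla5 was lower in both mutants than in W/W (-0.59 ± 0.19, limma adjusted p = 0.00757 in W/F and 0.00653 in F/F), where all 4 W/W livers held at least 1 read. The W/F call was lost without W/W replicate 2 (-0.44, limma adjusted p = 0.0518). Its response to T0901317 was smaller by -3.02 ± 0.27 in W/F and by -3.31 ± 0.27 in F/F (limma adjusted p = 7.76e-10 and 1.19e-09). As Pnpla5 passed the filter only through W/W, these differences from W/W describe it only. On recovered reads with limma voom the W/F difference of responses was -2.06 and did not pass (adjusted p = 0.216). In W/F itself, T0901317 against vehicle was 0.31 ± 0.19 and was not called (limma adjusted p = 0.163), but it was called with a pseudocount of 0.1 (limma adjusted p = 0.0287), with voom (adjusted p = 0.0282) and in the fit of the compared groups alone (limma adjusted p = 0.0400).

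Across the 36 livers, the genes closest to Pnpla3 were sought among 11195 genes with a mean of at least 5 TPM in at least 1 group. Closeness was the root mean square difference between the log2(TPM + 1) profiles, each centred on its own mean, and a flat profile would lie 1.74 from Pnpla3. Pnpla5 ranked first, at 0.645. Mir6392 came next at 0.669, a microRNA gene of 108 bases that lies in an intron of Pnpla3 on the same strand, so reads of unspliced Pnpla3 RNA cannot be told from its own. The long noncoding gene Gm28548 followed at 0.771, then Ehhadh, a peroxisomal enzyme of fatty acid oxidation that stood at 508 TPM on vehicle and 2636 TPM on T0901317 in W/W. Mogat1, which makes diglyceride from monoglyceride, ranked 5 at 0.921, with means of 3.48 and 19.5 TPM. Of these 5, all but Ehhadh reached 5 TPM in W/W on T0901317 alone, so that they entered the ranking through the group where Pnpla3 is high, and their closeness is a description only. For Pnpla5 the closest were Gm28548 (0.324), Rdh16 (0.524) and Slc39a5 (0.530), and Pnpla3 ranked 8 at 0.645. Of the other 6 genes, Mgll was the nearest to Pnpla3, at rank 145, and Pnpla2 the farthest, at rank 933.

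**Figure D2:**
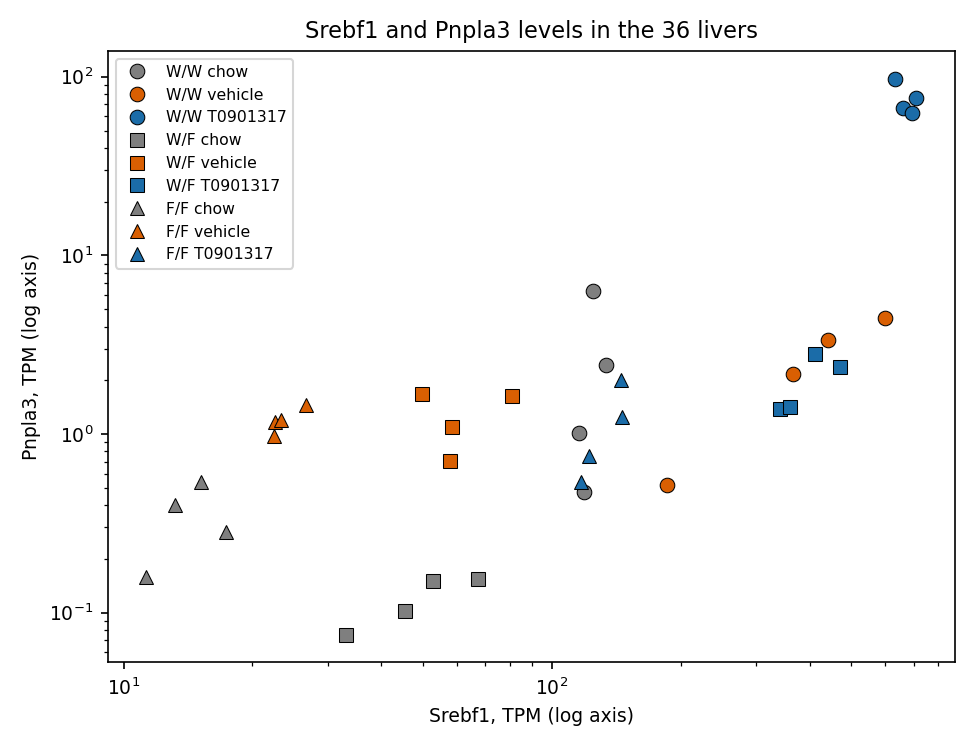
Pnpla3 against Srebf1 in the 36 livers, in TPM on log axes. Circles are W/W, squares W/F and triangles F/F, in grey for chow, orange for MASH diet with vehicle and blue for MASH diet with T0901317. The 4 W/F livers on T0901317 have Srebf1 of 341 to 470 TPM, within the range of W/W vehicle, and Pnpla3 of 1.38 to 2.79 TPM.

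Srebf1, whose product is a lipogenic transcription factor known to act on Pnpla3, was set beside it. In W/W livers Srebf1 stood at 123 ± 7.66 TPM on chow, 398 ± 171 on vehicle and 675 ± 33.6 on T0901317 (SD, n = 4). In W/F livers the same groups were at 49.6 ± 14.3, 61.8 ± 13.2 and 396 ± 57.7 TPM, so the W/F livers on T0901317 reached the mean of W/W livers on vehicle, with Pnpla3 at 1.99 ± 0.702 and 2.63 ± 1.70 TPM in those groups. F/F livers on T0901317 had 133 ± 15.1 TPM of Srebf1, beside 123 TPM in W/W on chow, and 1.14 ± 0.654 TPM of Pnpla3. The values are given side by side, and no relation was tested. Fasn, the fatty acid synthase gene, was at 841 ± 177 TPM in W/W on T0901317 and 65.4 ± 19.8 in W/F on T0901317. Scd1, the stearoyl-CoA desaturase gene, was at 21770 ± 410 and 1900 ± 242 TPM in those groups.

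**Figure D3:**
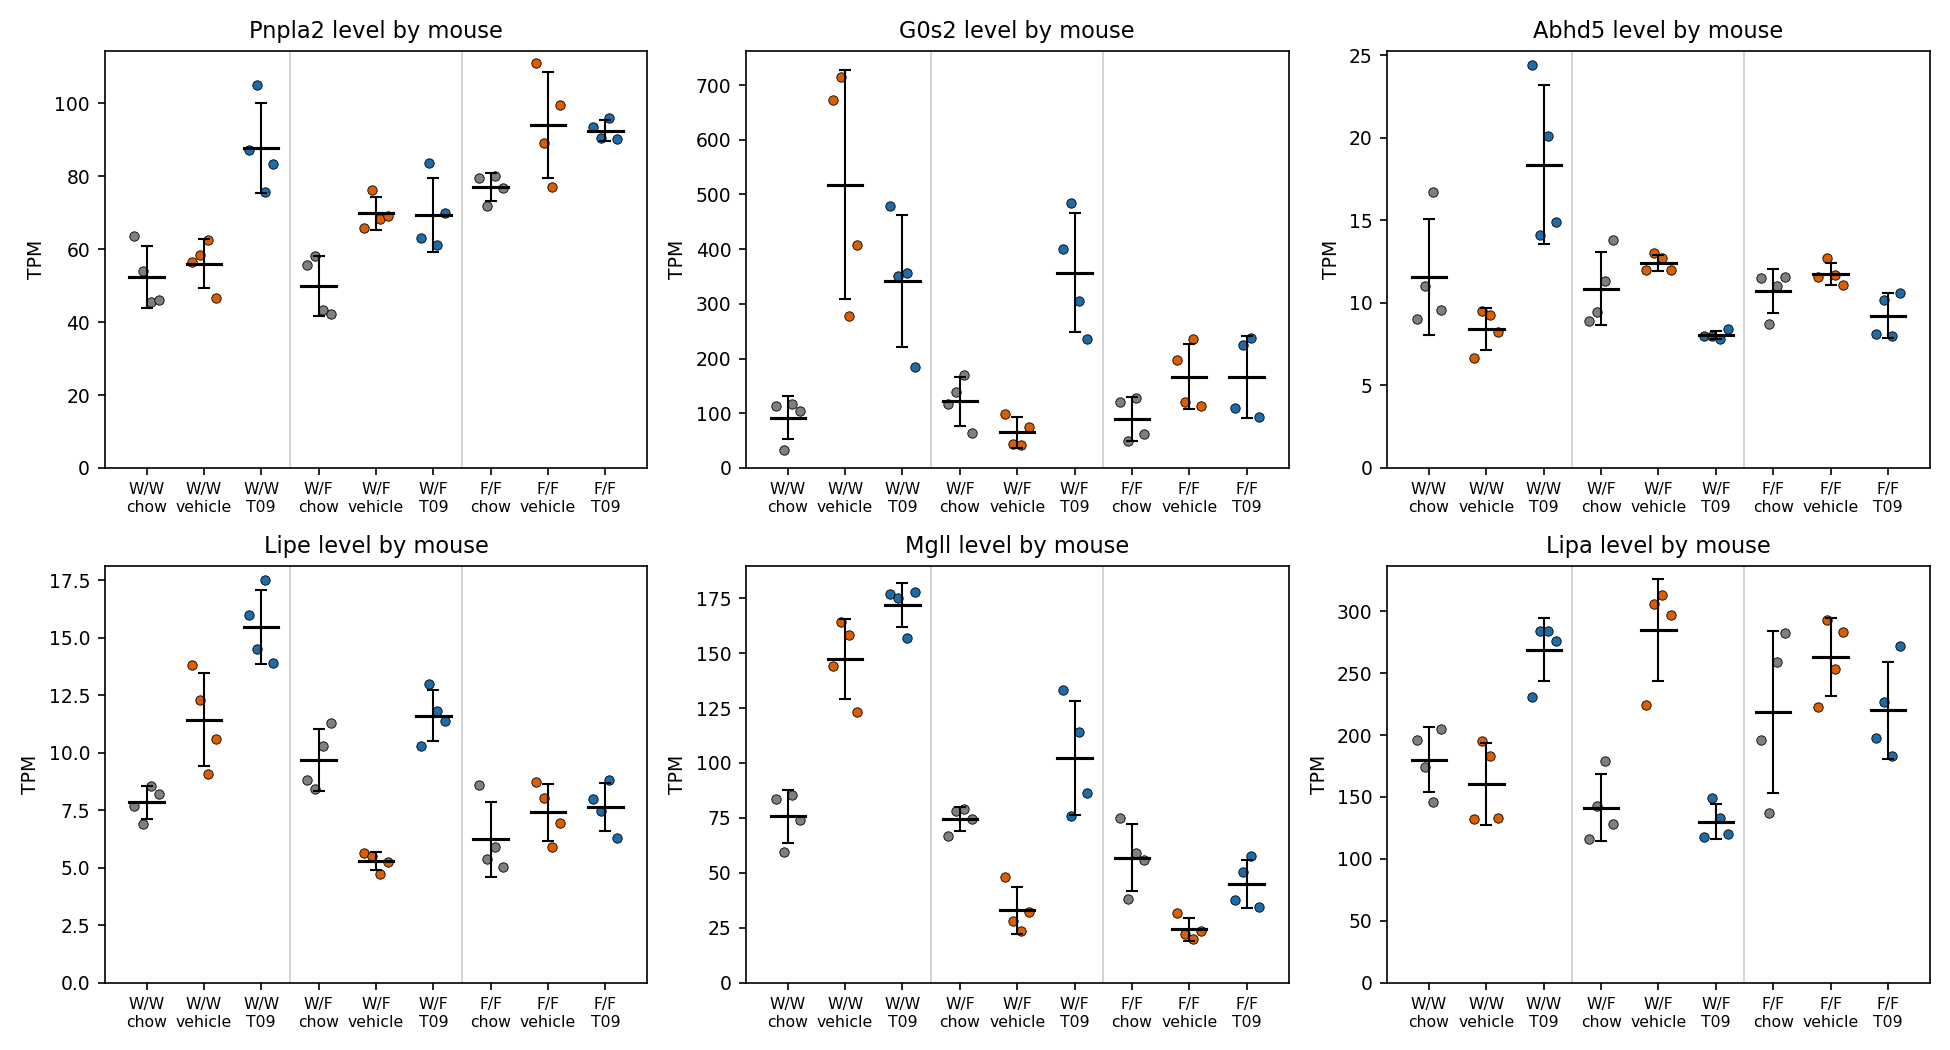
TPM of Pnpla2, G0s2, Abhd5, Lipe, Mgll and Lipa in each liver, by genotype and treatment (T09, T0901317). Points are mice, the thick line is the mean and the bar is 1 SD (n = 4). G0s2 is highest in W/W on vehicle and Mgll lowest in F/F on vehicle.

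Pnpla2, the lipase that begins triglyceride breakdown, moved within a narrow band. Its lowest liver was at 42.3 TPM (W/F, chow) and its highest at 111 TPM (F/F, vehicle). T0901317 raised it in W/W from 56.0 ± 6.73 to 87.8 ± 12.3 TPM, without overlap (0.64 ± 0.12, limma adjusted p = 5.26e-04), and the means in W/F (69.9 and 69.5) and F/F (94.1 and 92.6) were close to each other. As deposited, F/F livers held more Pnpla2 than W/W on chow (77.1 ± 3.78 against 52.3 ± 8.50 TPM, 0.56, limma adjusted p = 4.85e-04) and on vehicle (94.1 ± 14.4 TPM, 0.73, limma adjusted p = 3.25e-06). Rescaled, those differences were 0.26 and 0.02 and did not pass. The W/F excess on vehicle (0.32, limma adjusted p = 0.0218) turned to -0.22 after rescaling and lost its call without W/W replicate 4 (0.24, limma adjusted p = 0.104) or W/F replicate 2 (0.28, limma adjusted p = 0.0679). In W/F the agonist difference was -0.02 as deposited and 0.46 rescaled (limma adjusted p = 0.00379). Of the 15 comparisons of 2 groups, only the rise with T0901317 in W/W and the F/F excess over W/F on chow (0.63 and, rescaled, 0.36) were called in the same direction under both scalings.

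Abhd5, the co-activator of that lipase, was highest in W/W on T0901317. The 4 livers read 24.4, 14.1, 20.1 and 14.9 TPM, above 6.69, 9.52, 9.27 and 8.25 TPM on vehicle. The rise was 1.02 ± 0.16 (limma adjusted p = 2.30e-05). In W/F, T0901317 went with a fall from 12.4 ± 0.494 to 8.05 ± 0.262 TPM, by -0.57 ± 0.16 (limma adjusted p = 0.00206), which rescaling reduced to -0.12 (limma adjusted p = 0.506). The difference of responses held under both scalings, at -1.58 and -1.09 for W/F and -1.34 and -1.08 for F/F. On vehicle, Abhd5 was higher in W/F (0.52) and F/F (0.45) than in W/W as deposited, while after rescaling the differences were 0.02 and -0.21. The F/F call was also lost without W/W replicate 1 (0.35, limma adjusted p = 0.0551).

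G0s2, the inhibitor of the same lipase, changed with diet in a way that depended on genotype. W/W livers held 114, 33.1, 116 and 104 TPM on chow, 673, 714, 278 and 407 TPM on vehicle, and 478, 350, 356 and 185 TPM on T0901317. Every W/W vehicle liver exceeded every W/W chow liver, and the T0901317 values overlapped those on vehicle. G0s2 rose 5.65-fold with the diet in W/W (2.54 ± 0.43, limma adjusted p = 1.89e-04). W/F livers held 116, 138, 170 and 63.0 TPM on chow, 99.3, 43.1, 41.9 and 75.0 TPM on vehicle, and 401, 485, 305 and 236 TPM on T0901317. Vehicle and chow overlapped in W/F, and their difference of -0.91 ± 0.43 was not called (limma adjusted p = 0.0658; -1.30 and called after rescaling, limma adjusted p = 0.0126). T0901317 raised G0s2 5.51-fold over vehicle without overlap (2.49 ± 0.43, limma adjusted p = 8.62e-06). F/F livers held 120, 48.3, 127 and 62.4 TPM on chow, 197, 120, 236 and 114 TPM on vehicle, and 110, 224, 238 and 92.2 TPM on T0901317. Vehicle and T0901317 covered the same range in F/F.

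W/W livers on vehicle thus had 7.99 times the G0s2 of W/F livers (-2.97 ± 0.43, limma adjusted p = 4.50e-07) and 3.11 times that of F/F livers (-1.60 ± 0.43, limma adjusted p = 0.00119). The diet response of W/F differed from that of W/W by -3.45 ± 0.60 (limma adjusted p = 2.29e-05), and its agonist response by 3.06 ± 0.60 (limma adjusted p = 8.26e-05). Several G0s2 calls rest on single livers. On T0901317 F/F was lower than W/W (-1.08, limma adjusted p = 0.0278) unless W/W replicate 1, 2 or 3 or F/F replicate 1 or 4 was left out (-1.04 to -0.84, limma adjusted p = 0.0540 to 0.108). F/F exceeded W/F on vehicle (1.37, limma adjusted p = 0.0209), but not after rescaling (1.20, limma adjusted p = 0.0733), nor without W/F replicate 2 or 3 or F/F replicate 1 or 3 (1.18 to 1.27, limma adjusted p = 0.0591 to 0.0705). On T0901317 F/F was below W/F (-1.17, limma adjusted p = 0.0181), except without W/F replicate 2 or F/F replicate 1 or 4 (-1.01 to -0.93, limma adjusted p = 0.0577 to 0.0763). The smaller diet response of F/F (-1.60, limma adjusted p = 0.0305) was lost without any 1 of 7 libraries: W/W chow replicate 2, W/W vehicle replicates 1 and 2, F/F chow replicates 1 and 3, and F/F vehicle replicates 2 and 4 (-1.47 to -1.17, limma adjusted p = 0.0612 to 0.0956).

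Adipocytes also express G0s2, Lipe and Pnpla2 strongly, so their markers were read in the same libraries. The sum of 8 adipocyte markers was 134 to 435 TPM in W/W on vehicle, 42.7 to 51.1 in W/F and 68.6 to 84.8 in F/F. Cfd made most of it in W/W (mean 292 TPM, against 1.21 in W/F and 2.26 in F/F). Of the 8, 4 were near 0: Lep was at 0 in all 36 libraries, and Adipoq reached at most 0.248 TPM, Plin1 0.147 TPM and Retn 0.507 TPM. The other 3 were expressed and did not move together. On vehicle in W/W, W/F and F/F, Fabp4 had means of 3.67, 20.7 and 24.6 TPM, Cidec 26.8, 23.0 and 45.5 TPM, and Adrb3 8.14, 2.85 and 2.88 TPM. The part of adipocytes in the differences of G0s2 and Lipe was not tested.

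Lipe, the diglyceride lipase, was a low transcript in liver. Its group means ran from 5.29 ± 0.403 TPM in W/F on vehicle to 15.5 ± 1.59 TPM in W/W on T0901317. Between chow and vehicle it went up in W/W, from 7.85 ± 0.713 to 11.5 ± 2.03 TPM (0.48 ± 0.13, limma adjusted p = 0.0142), and down in W/F, from 9.69 ± 1.34 to 5.29 TPM (-0.76 ± 0.13, limma adjusted p = 1.19e-05). The W/W rise lost its call without W/W chow replicate 2 (0.43, limma adjusted p = 0.0620) or W/W vehicle replicate 1 (0.40, limma adjusted p = 0.0855). T0901317 took W/F livers back to 11.6 ± 1.12 TPM, a rise of 1.00 ± 0.13 (limma adjusted p = 1.68e-07) without overlap. In W/W its rise of 0.42 ± 0.13 passed as deposited (limma adjusted p = 0.0395) and missed the threshold after rescaling (0.36, limma adjusted p = 0.0872). It also missed without W/W vehicle replicate 3 or 4 or W/W T0901317 replicate 1, 2 or 3 (0.32 to 0.44, limma adjusted p = 0.0565 to 0.173). F/F livers held 6.24 ± 1.62, 7.41 ± 1.24 and 7.65 ± 1.06 TPM in the 3 settings, ranges that overlapped throughout.

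On vehicle Lipe was lower than in W/W in W/F (-0.97 ± 0.13, limma adjusted p = 1.95e-07) and in F/F (-0.56 ± 0.13, limma adjusted p = 3.21e-04). On T0901317 F/F was lower by -0.93 ± 0.13 (limma adjusted p = 6.76e-07). The W/F livers on T0901317 lay below every W/W liver, but the difference of -0.39 ± 0.13 was not called (limma adjusted p = 0.0596). Without the W/F liver that stood apart, replicate 2, it passed (-0.44, limma adjusted p = 0.0497), and so did the same comparison for Pnpla2 (-0.33 with and -0.43 without that liver, limma adjusted p = 0.0841 and 0.0298). Lipe in F/F on vehicle exceeded W/F by 0.41 (limma adjusted p = 0.0268), a call lost after rescaling (0.25, limma adjusted p = 0.277) and without W/F replicate 3 or 4 or F/F replicate 1 or 2 (0.33 to 0.41, limma adjusted p = 0.0556 to 0.102).

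Mgll, the monoglyceride lipase gene, parted the genotypes on the MASH diet most evenly. W/W livers held 83.7, 59.5, 85.5 and 74.1 TPM on chow and 144, 164, 158 and 123 TPM on vehicle. W/F livers held 66.8, 78.2, 78.9 and 74.3 TPM on chow and 47.9, 28.3, 23.4 and 32.1 TPM on vehicle. F/F livers held 74.8, 38.1, 59.1 and 55.9 TPM on chow and 31.6, 22.0, 19.7 and 23.7 TPM on vehicle. The diet groups did not overlap in any genotype, and the change was upward in W/W and downward in the mutants. The differences were 0.96 ± 0.20 in W/W (limma adjusted p = 0.00167), -1.20 ± 0.20 in W/F (limma adjusted p = 5.62e-06) and -1.18 ± 0.20 in F/F (limma adjusted p = 1.00e-05). The diet response of each mutant differed from that of W/W, by -2.16 ± 0.28 and -2.14 ± 0.28 (limma adjusted p = 3.34e-07 and 1.35e-06). On vehicle W/W livers had 4.48 times the Mgll of W/F and 6.08 times that of F/F livers.

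T0901317 raised Mgll in both mutants. W/F livers reached 133, 75.7, 114 and 86.3 TPM (1.62 ± 0.20, limma adjusted p = 4.87e-08; 1.75 without replicate 2) and F/F livers 37.6, 50.3, 57.8 and 34.3 TPM (0.86 ± 0.20, limma adjusted p = 0.00196). All of them exceeded the vehicle livers of their genotype. In W/W the agonist group stood at 177, 175, 157 and 178 TPM, close to vehicle (0.23 ± 0.20, limma adjusted p = 0.570). W/F and F/F on T0901317 remained below W/W (-0.77 ± 0.20 and -1.94 ± 0.20, limma adjusted p = 0.00969 and 3.23e-09). These directions were the same after rescaling, where the agonist differences were 2.10 in W/F and 1.07 in F/F. By the closeness measure used for Pnpla3, the genes nearest to Mgll were Fabp1, the liver fatty acid carrier, Acsl1, which activates long-chain fatty acids, and Hpd.

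Lipa, the lysosomal lipase gene, had the highest mean of the 6 enzyme genes in each of the 9 groups, with single livers at 116 to 313 TPM. It rose with T0901317 in W/W, from 161 ± 33.2 to 269 ± 25.3 TPM (0.75 ± 0.18, limma adjusted p = 0.00424), and fell in W/F, from 285 ± 41.3 to 130 ± 14.3 TPM (-1.12 ± 0.18, limma adjusted p = 2.70e-06). Neither pair of groups overlapped, and rescaling left both calls (0.69 and -0.64). In F/F the means were 263 ± 31.6 and 220 ± 39.4 TPM and overlapped. The responses of W/F and F/F differed from that of W/W by -1.88 ± 0.25 and -1.02 ± 0.25 (limma adjusted p = 4.05e-07 and 0.00338). Between chow and vehicle Lipa rose in W/F, from 142 ± 27.3 TPM (1.01 ± 0.18, limma adjusted p = 1.28e-05, and 0.61 rescaled).

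On vehicle the mutants held more Lipa than W/W as deposited (0.83 in W/F and 0.72 in F/F, limma adjusted p = 1.36e-04 and 5.38e-04). After rescaling these differences were 0.29 and 0.00 and did not pass. Macrophages express Lipa as well, and the macrophage sum given above was 1179 TPM or more in every mutant liver on vehicle and 232 TPM or less in W/W. Its mean in W/F was 1490 TPM on vehicle and 314 TPM on T0901317, where 3 of 4 livers were at 122 to 221 TPM. In W/W it was 200 TPM on vehicle and 308 TPM on T0901317. Of the 9 macrophage markers, 6 were higher and 3 (Clec4f, Cd5l and Timd4, genes of resident liver macrophages) lower in F/F than in W/W on vehicle, and 7 were higher and 2 lower in W/F. The part of macrophages in the Lipa differences was not tested. F/F exceeded W/F in Lipa on chow (0.59, limma adjusted p = 0.00878), a call lost after rescaling (0.32, limma adjusted p = 0.124) and without F/F replicate 4 (0.45, limma adjusted p = 0.0600).

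**Figure D4:**
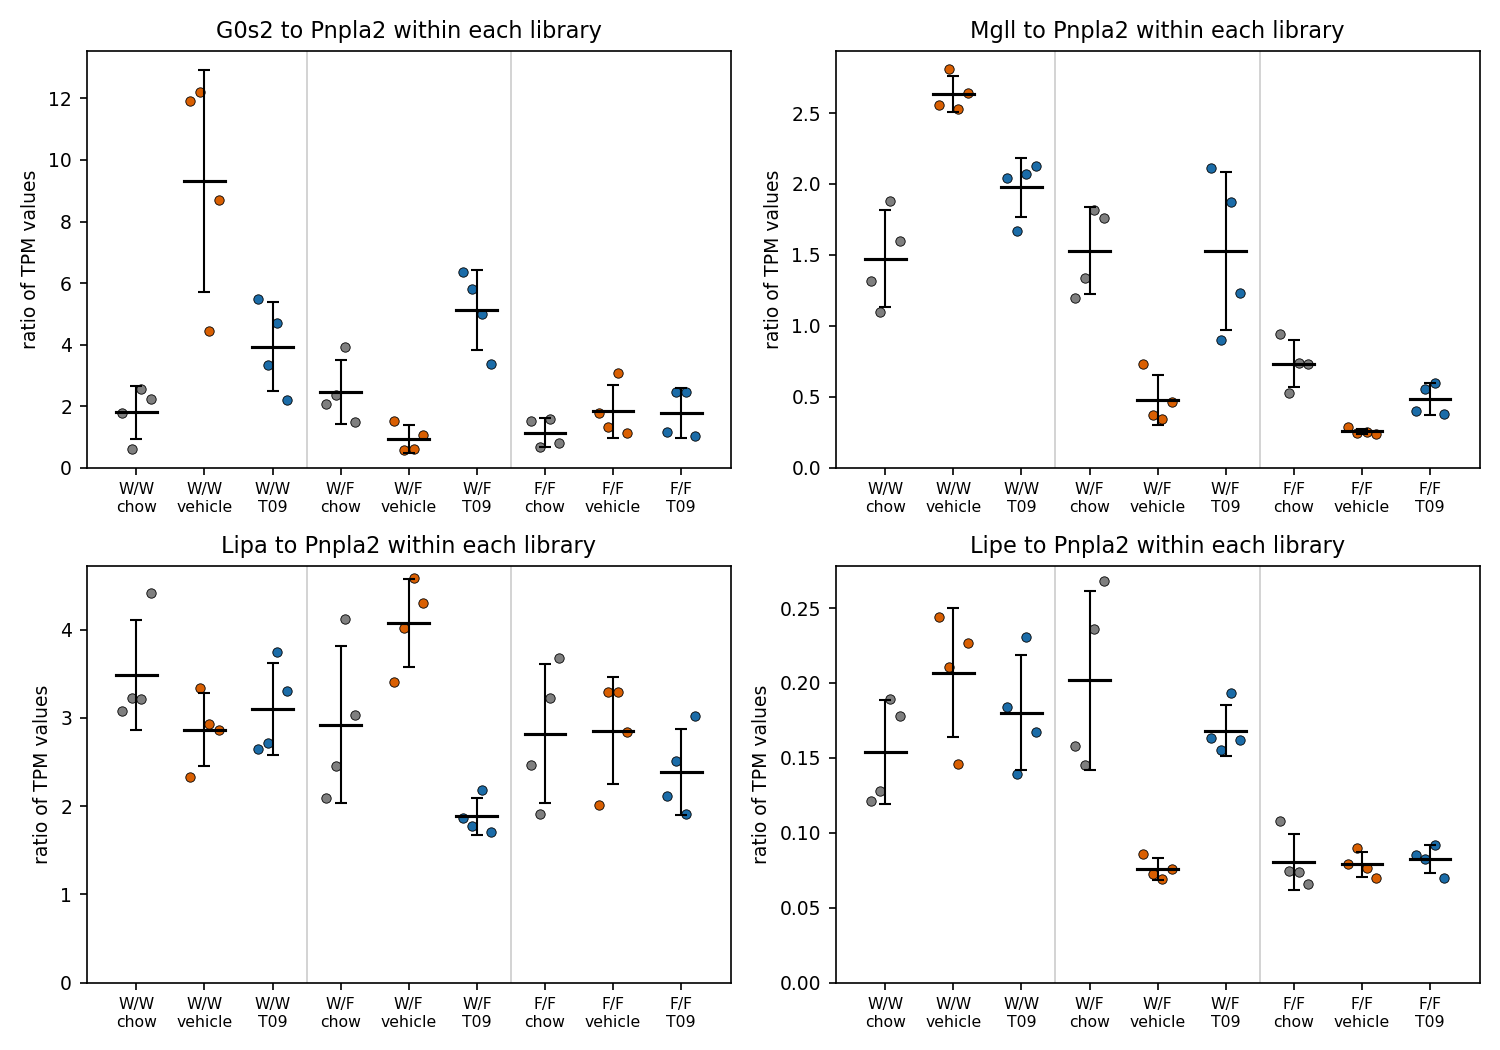
Ratio of the TPM of G0s2, Mgll, Lipa and Lipe to that of Pnpla2 in the same library, which does not depend on how a library is scaled (T09, T0901317). Points are mice, the thick line is the mean and the bar is 1 SD (n = 4). Mgll to Pnpla2 lies between 2.53 and 2.81 in W/W on vehicle and between 0.238 and 0.286 in F/F on vehicle.

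Ratios within a library are free of its scaling, and show unequal change only. The inhibitor G0s2 stood to the lipase Pnpla2 as 1.80 ± 0.853 in W/W on chow, 9.32 ± 3.62 on vehicle and 3.93 ± 1.45 on T0901317 (SD, n = 4). In W/F the order differed, with 2.46 ± 1.03, 0.943 ± 0.445 and 5.13 ± 1.29. The lowest W/W vehicle liver (4.44) lay above the highest W/F vehicle liver (1.51) and the highest F/F vehicle liver (3.07). F/F ratios were 1.14 ± 0.468, 1.83 ± 0.866 and 1.79 ± 0.798 and overlapped one another.

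For Mgll the ratio to Pnpla2 on vehicle was 2.63 ± 0.125 for W/W livers, 0.477 ± 0.176 for W/F and 0.257 ± 0.0206 for F/F. On T0901317 it was 1.98 ± 0.210, 1.53 ± 0.555 and 0.485 ± 0.110. Lipe to Pnpla2 on vehicle was 0.207 ± 0.0431 in W/W against 0.0759 ± 0.00715 in W/F and 0.0789 ± 0.00834 in F/F, and in F/F it was as low on chow (0.0807 ± 0.0188) as on vehicle. The co-activator Abhd5 to Pnpla2 on T0901317 was 0.215 ± 0.0699 in W/W and 0.118 ± 0.0151 in W/F. Pnpla3 reached 0.879 ± 0.224 of the Pnpla2 level in W/W on T0901317, and was at 0.0499 ± 0.0368 on vehicle. Lipa to Pnpla2 in W/F was 4.07 ± 0.501 on vehicle and 1.88 ± 0.207 on T0901317.

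**Figure D5:**
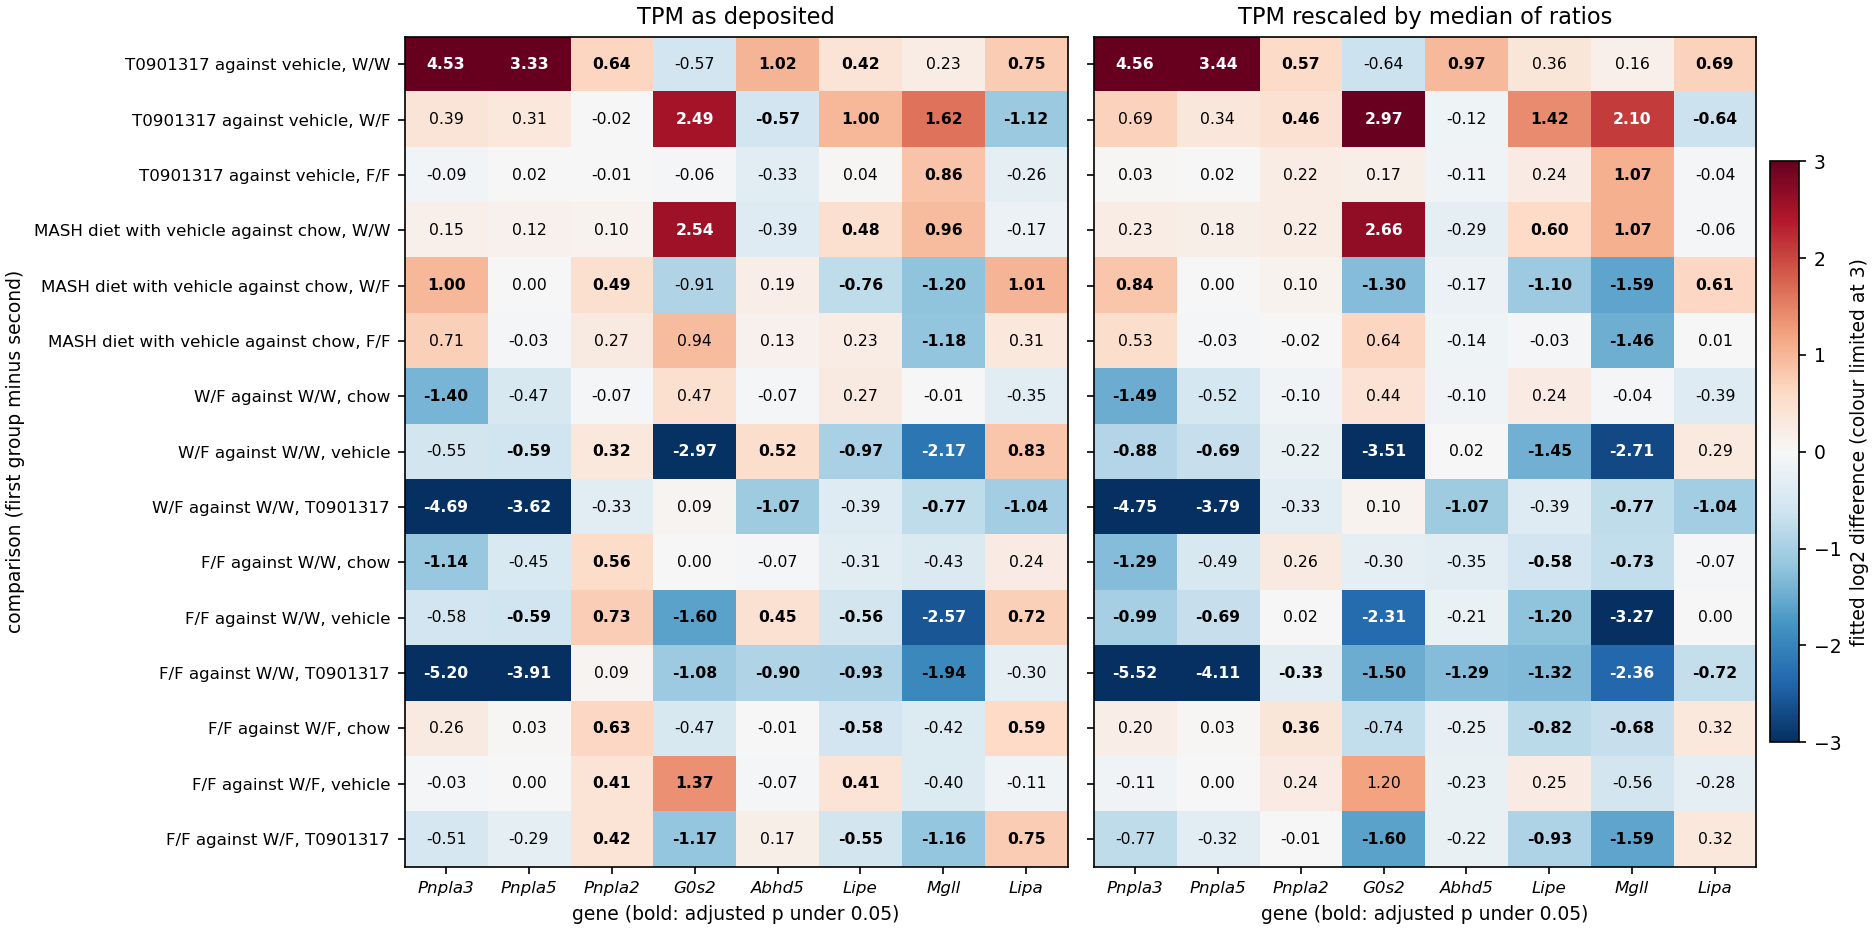
Fitted log2 differences of the 8 genes (columns) in the 15 comparisons of 2 groups (rows), for TPM as deposited (left) and rescaled (right). Red is higher and blue lower in the first group, the colour stops at 3, and bold numbers have a limma adjusted p under 0.05. Pnpla3 and Pnpla5 reach 4.53 and 3.33 for T0901317 in W/W, and Mgll -2.57 on vehicle between F/F and W/W.

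Counts over the 8 genes are read against the share of all 16638 genes called, and the genes were chosen with results known, so the counts describe them only. Pnpla5, which passed the filter through W/W alone, had to differ somewhere, and each count that includes it is 1 lower without it. With T0901317 in W/W, Pnpla5 aside, 5 of the other 7 rose (Pnpla3, Pnpla2, Abhd5, Lipe and Lipa) where 10.8% of all genes were called, and 4 after rescaling (all of these but Lipe, 13.6% called). In W/F, G0s2, Lipe and Mgll rose and Abhd5 and Lipa fell (65.9%), and rescaled Pnpla2 joined the rises and Abhd5 was no longer called (51.6%). In F/F Mgll alone was called, as deposited (35.1%) and rescaled (17.6%). For these 3 comparisons the median of the 8 genes was 0.70, 0.35 and -0.03, beside 0.06, -0.49 and -0.24 over all genes.

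Between chow and vehicle, G0s2, Lipe and Mgll rose in W/W (12.9% of all genes called, and rescaled the same 3 with 15.3%). In W/F, Pnpla3, Pnpla2 and Lipa rose while Lipe and Mgll fell (61.0%). Rescaled, Pnpla3 and Lipa rose and G0s2, Lipe and Mgll fell (54.1%). Mgll fell in F/F and was the only gene of the 8 called (55.8%, and rescaled 47.8%). The medians of the 8 genes were 0.14, 0.10 and 0.25 beside -0.05, 0.39 and 0.32 over all genes.

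Between genotypes on chow, Pnpla3 alone was lower in W/F than in W/W (0.487% of all genes called, rescaled 0.601%). In F/F against W/W Pnpla2 was higher and Pnpla3 lower (46.7%), and rescaled Pnpla3, Lipe and Mgll were lower (28.8%). F/F against W/F had Pnpla2 and Lipa higher and Lipe lower (41.4%), and rescaled Pnpla2 higher and Lipe and Mgll lower (29.1%). On vehicle, both mutants had Pnpla2, Abhd5 and Lipa above and Pnpla5, G0s2, Lipe and Mgll below W/W, with 68.5% of all genes called in W/F and 76.5% in F/F. Rescaled, 5 genes were lower in each (Pnpla3, Pnpla5, G0s2, Lipe and Mgll), with 53.0% and 59.4% called. The median of the 8 genes was -0.57 in both mutants as deposited, beside 0.52 and 0.70 over all genes. F/F against W/F on vehicle had Pnpla2, G0s2 and Lipe higher (21.3%). The Pnpla2 call was lost without F/F replicate 1 (0.33, limma adjusted p = 0.0744). In the same comparison limma called 0 of 8 after rescaling (11.1% of all genes), with 2 at an unadjusted p under 0.05 and 3 called by voom.

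With T0901317, 5 genes were lower in W/F than in W/W under both scalings (Pnpla3, Pnpla5, Abhd5, Mgll and Lipa, with 9.88% of all genes called and 13.8% rescaled). Without W/F replicate 2 there were 7, Pnpla2 and Lipe being added. F/F against W/W had 6 lower, all but Pnpla2 and Lipa (63.2%), and all 8 lower after rescaling (48.0%). F/F against W/F had Pnpla2 and Lipa higher and G0s2, Lipe and Mgll lower (62.6%), and rescaled the latter 3 lower (40.3%). Without W/F replicate 2, G0s2 was no longer called there (-1.01, limma adjusted p = 0.0577).

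The responses themselves were compared in the same fit. The T0901317 response of W/F differed from that of W/W for all 8 genes (58.5% of all genes called), more positive for G0s2, Lipe and Mgll and less for the others, and rescaled for all but Pnpla2 (43.9%). That of F/F was less positive for Pnpla3, Pnpla5, Pnpla2, Abhd5 and Lipa (30.4%). Rescaled, Pnpla2 was not called and Mgll was, as more positive (18.1%). The diet response of W/F was more positive than that of W/W for Abhd5 and Lipa and less for G0s2, Lipe and Mgll (54.6%), and rescaled Abhd5 was not called (39.5%). The diet response of F/F was less positive for G0s2 and Mgll (46.0%), joined by Lipe after rescaling (27.5%). Comparisons that share a group of mice are not independent of each other.

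Other genes of neutral lipid handling were counted from lists, in comparisons with unlike backgrounds. With T0901317 in W/W, 10.8% of all genes were called, 73.0% of these higher. In F/F against W/W on vehicle it was 76.5%, 90.7% of these higher (59.4% and 62.5% rescaled). Of 15 genes of fatty acid and triglyceride synthesis, 11 rose with T0901317 in W/W, from Acacb, an acetyl-CoA carboxylase gene (2.69 ± 0.28, limma adjusted p = 3.22e-08), to Mlxipl, the gene of the glucose-responsive factor ChREBP (0.50 ± 0.17, limma adjusted p = 0.0451). In F/F against W/W on vehicle 12 of them were lower, with Scd1 at 13.1 ± 1.61 against 7896 ± 2382 TPM, and Dgat1, which closes triglyceride synthesis, was higher (0.58 ± 0.09, limma adjusted p = 6.55e-07; -0.11 rescaled). Rescaled, 14 were lower. Of 8 tested genes for lipid droplet coat proteins and lipase inhibitors, 5 rose with T0901317 in W/W: Plin2, Plin3, Cidea, Cidec and Hilpda. Cidec, which fuses droplets, went from a mean of 26.8 to 118 TPM (2.15 ± 0.30, limma adjusted p = 5.17e-06) and Plin3 from 43.4 ± 9.28 to 76.2 ± 10.1 TPM (0.82 ± 0.15, limma adjusted p = 4.14e-04). The same 5 genes were higher in F/F than in W/W on vehicle, Plin3 at 193 ± 9.76 TPM, and Cideb was lower (-0.20 ± 0.07, limma adjusted p = 0.0169). With 6 of 8 called, the list was near the share of all genes in that comparison. Rescaled, 2 were higher and 2 lower.

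Carboxylesterases and related hydrolases, some of which also cut triglyceride in hepatocytes, split in both directions. Of 16 tested, 6 rose and 3 fell with T0901317 in W/W, from Ces2a at 380 ± 25.3 to 947 ± 81.4 TPM (1.31 ± 0.21, limma adjusted p = 4.21e-05) to Ces1b at 50.1 ± 5.16 to 14.7 ± 1.37 TPM (-1.70 ± 0.18, limma adjusted p = 5.28e-08). Several Ces genes are near-identical copies, so reads may be split between them. In F/F against W/W on vehicle, 76.5% of all genes were called, 90.7% of these higher (59.4% and 62.5% rescaled). There 10 of the list were lower and 3 higher, and rescaled 12 and 2. Ces3b stood at 5.10 ± 3.70 TPM in F/F against 489 ± 108 in W/W. Nceh1, a cholesteryl ester hydrolase gene, was higher, at 41.7 ± 4.14 TPM in F/F (1.61 ± 0.14, limma adjusted p = 1.50e-11). Macrophages also express Nceh1, and their part in this difference was not tested.

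Of 11 genes of lysosomal lipid handling beside Lipa, 2 rose with T0901317 in W/W. Ctsd, the cathepsin D gene, went from 202 ± 21.7 to 378 ± 24.8 TPM (0.91 ± 0.15, limma adjusted p = 7.55e-05) and Npc2, a lysosomal cholesterol carrier, from 43.3 ± 6.46 to 68.0 ± 9.13 TPM (0.64 ± 0.17, limma adjusted p = 0.0104). In F/F against W/W on vehicle, where 76.5% of all genes were called and most of these were higher, 10 of 11 were higher, with Ctsd at 1263 ± 117 TPM (2.64 ± 0.15, limma adjusted p = 2.89e-15) and Scarb2 the least (0.47 ± 0.11, limma adjusted p = 4.45e-04). Rescaled, 6 were higher and 2 lower. Among the other patatin-like genes, 3 of 4 passed the filter, and limma called 0 of 3 with T0901317 in W/W (2 at an unadjusted p under 0.05, and 0 by voom). In F/F against W/W on vehicle Pnpla6, a lysophospholipase gene, was higher (0.55 ± 0.17, limma adjusted p = 0.00366; -0.10 rescaled) and Pnpla7, of the same type, lower (-0.52 ± 0.11, limma adjusted p = 1.17e-04; -1.22 rescaled).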

How the data were processed

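The authors deposited 1 table of TPM values, in which the labels name 36 mouse liver polyA RNA libraries. Per the submitters' processing notes, Trimmomatic 0.36, STAR 2.5.2b, Subread 1.5.2 and featureCounts were used, with GRCm38 and mm10 named as builds. The annotation, the gene lengths and the strand setting are not given in the sources used here. The values are not counts, so limma 3.58.1 (R 4.3.3) was used on log2(TPM + 1): means of 9 groups in 1 model, variance trend, 2-sided tests, a threshold of 0.05 on p-values adjusted by the Benjamini-Hochberg method, genes reaching 1 TPM in 4 samples or more (16638 genes) and 19 comparisons, 4 of which compare responses. Nothing in the labels says whether mice shared a litter or cage, and p-values measure only the spread between these mice. Reads were recovered from the step size of small TPM values with exon lengths of GENCODE M21 (93.7% to 95.6% of low values came out whole within 0.1, where chance gives 20%). They gave the depths and a limma voom test, an alternative chosen after seeing the data. The recovered reads of Pnpla3 and Pnpla5 were not whole (for instance 1.33 and 1.28), so the counts that voom used for these genes are inexact. Its error is also limited by their low levels outside the W/W T0901317 group, at most 6.35 TPM for Pnpla3 and 1.24 TPM for Pnpla5. The other alternatives were no filter, a stricter filter (5 TPM), a pseudocount of 0.1, rescaled libraries, a replicate block, array quality weights, fits of the compared groups alone and leaving out each library. All 8 genes are described. From each list the called genes with the largest and smallest difference are named, and from the closeness ranking the first 5 for Pnpla3 and the first 3 for the others. The genes and lists were chosen with earlier results of these data known.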

Additional observations from a re-analysis of the deposited data

Results flagged for a closer look

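In 6 of the 72 groups of 4 libraries (8 genes in 9 groups), 1 liver lay far from the other 3 by Dixon's criterion. Chance alone gives about 1 in 20 groups for normally distributed values. That rate does not hold for Pnpla5 at the floor. A group wholly at 0 cannot be flagged, and 1 nonzero liver beside 3 at 0 always is. The lowest livers were Pnpla5 in W/F on T0901317 replicate 1 (0 TPM), G0s2 in W/W on chow replicate 2 (33.1 TPM), Mgll in W/W on T0901317 replicate 3 (157 TPM) and Lipa in W/W on T0901317 replicate 1 (231 TPM). The highest were Pnpla5 in F/F on chow replicate 2 (0.0722 TPM) and in F/F on T0901317 replicate 4 (0.0544 TPM), each a single read.

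The response to T0901317 or to the diet differed between a mutant and W/W in 20 cases, tested as a difference of responses in limma, with log2 values and p-values adjusted over all genes. For T0901317 in W/F minus W/W these were Pnpla3 -4.14 (adjusted p = 3.15e-08), Pnpla5 -3.02 (7.76e-10), Pnpla2 -0.65 (0.00188), G0s2 3.06 (8.26e-05), Abhd5 -1.58 (7.13e-07), Lipe 0.58 (0.00852), Mgll 1.40 (1.14e-04) and Lipa -1.88 (4.05e-07). All 8 were still called without the W/F liver that stood apart. For T0901317 in F/F minus W/W they were Pnpla3 -4.62 (4.10e-08), Pnpla5 -3.31 (1.19e-09), Pnpla2 -0.65 (0.00612), Abhd5 -1.34 (5.79e-05) and Lipa -1.02 (0.00338). The Pnpla5 values are a description only, since it passed the filter through W/W alone.

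For the diet in W/F minus W/W they were G0s2 -3.45 (limma adjusted p = 2.29e-05), Abhd5 0.58 (0.0256), Lipe -1.24 (3.05e-06), Mgll -2.16 (3.34e-07) and Lipa 1.18 (2.44e-04). For the diet in F/F minus W/W they were G0s2 -1.60 (0.0305) and Mgll -2.14 (1.35e-06). The Abhd5 diet response was lost without W/W chow replicate 3, W/W vehicle replicate 1 or W/F chow replicate 1 or 2 (0.40 to 0.53, limma adjusted p = 0.0545 to 0.0896).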

How the results depend on the processing

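Of 2688 alternative values for 152 results of the 8 genes, 2533 kept their side of the threshold without reversing a call. Another 79 lost a call, 71 gained one and 5 changed sign with a call on either side, all 5 after rescaling. Sign changes between uncalled values are counted among the 2533. The 5 sign changes with a call were Pnpla2 with T0901317 in W/F (-0.02 to 0.46), Pnpla2 in W/F against W/W on vehicle (0.32 to -0.22), Abhd5 in F/F against W/W on vehicle (0.45 to -0.21), Pnpla2 in F/F against W/W on T0901317 (0.09 to -0.33) and Pnpla2 in F/F against W/F on T0901317 (0.42 to -0.01). The number of the 8 genes called moved by over 1.5 times as follows. With T0901317 in F/F it was 2 in the fit of the compared groups alone, against 1. For the diet in F/F it was 2 with a pseudocount of 0.1, 2 in the compared groups alone and 3 with the replicate block, against 1 (1 to 3 leaving out a library). On chow, W/F against W/W, it was 0 with no filter and 0 in the compared groups alone, against 1 (0 to 1). On chow, F/F against W/W, it was 5 with array quality weights, 1 in the compared groups alone and 4 with voom, against 2 (1 to 5). Rescaling gave 0 against 3 for F/F against W/F on vehicle (0 to 3) and 3 against 5 on T0901317. For the diet response of F/F it was 1 with no filter, against 2 (1 to 4). The causes were not tested. Whether replicate numbers pair the mice was not settled. Deviations from group means correlated over 0.1 in 18 of 144 same-numbered pairs (highest 0.297). The median was 0.0131, against -0.00643 for pairs with other numbers, and such a check cannot exclude a pairing. The replicate block added 4 calls and lost none (limma adjusted p = 0.0477 for G0s2 with diet in W/F, 0.0391 for Pnpla2 and 0.0441 for G0s2 with diet in F/F, and 0.0395 for the Pnpla2 diet response of W/F). Depth limits Pnpla3 on chow in the mutants (0.0754 to 0.538 TPM) and Pnpla5 in the mutants (0 to 0.337 TPM).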
